A study of Gossypium hirsutum with 6 samples.

Results

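The genes described here build fatty acids on acyl carrier protein (ACP), release them, and put in the first double bonds. They were found by the words of their descriptions, namely acyl carrier protein, acetyl-CoA carboxylase, biotin carboxyl or biotin carboxylase, and fatty acid desaturase, among protein-coding genes whose counts over the 6 samples summed to 60 or more. This gave 113 of 100562 listed genes, or 113 of 44055 protein-coding genes with that many counts. A further 42 genes fitted the words but had fewer counts, and 25 of these had 0 counts in all 6 samples. The genes nearest to the limit were a reductase, LOC107913205, with 40 counts outside it, and an ACP, LOC107901003, with 63 counts inside it. Of the 113 genes, 79 were described as chloroplastic, 13 as mitochondrial and 1 as an enzyme of the endoplasmic reticulum, and 20 carried no compartment. The 5 genes described as acetyl-CoA carboxylase 1 are of the single-chain type, which in other plants works in the cytosol. "Plastid" therefore names most but not all of these genes.

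RNA-seq was done on cultured ovules of wild-type upland cotton, *Gossypium hirsutum* (ZM24). Ovules taken at 0 DPA (days post anthesis) were cultured in the dark for 2 d with 10 μmol/L putrescine (Put) or with water (CK), with 3 samples of each. The ovule surface carries the young fiber cells, so the RNA came from both, and more fiber cells or more RNA per fiber cell cannot be told apart. By the study's methods, collected ovules were split at random into the replicates of a stage, and the labels name no separate plants or cultures. The p-values therefore measure the spread between these samples, which may be technical.

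Fatty acid synthesis in plants starts in the plastid. A heteromeric acetyl-CoA carboxylase, made of biotin carboxylase, biotin carboxyl carrier protein and carboxyltransferase, makes malonyl-CoA, and a transacylase moves the malonyl group to ACP. The 3-ketoacyl-ACP synthases (KAS) then add carbon in cycles with a reductase, a dehydratase and an enoyl reductase. The stearoyl-ACP desaturase sets the first double bond, thioesterases free the chains from ACP, and further desaturases act on chains bound in lipids. In cotton the elongating fiber is a cell with a large demand for membrane and wax lipids.

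Between 16974557 and 18454734 read pairs were counted per Put sample, and between 19131678 and 19463059 per CK sample. Ovule markers summed to between 616 and 629 FPKM (fragments per kilobase of gene, scaled to sequencing depth) in the Put samples and between 601 and 610 FPKM in the CK samples, and 0 of the 19 genes on that list was at 0. The sum was mostly *AGL11* and *TT16*. Of the 17 ovule markers tested, 3 were higher, all *AGL11*, and 9 were lower, namely all 6 *ANT* and all 3 *BEL1* genes tested, with LOC107945341 (*ANT*) at -1.34 and LOC107963801 (*BEL1*) at -1.43 on the log2 scale. The 13 genes of the fiber list, mostly *E6* and *FLA2* but also 3 cellulose synthase-like genes that share the name E6, summed to between 7377 and 7550 FPKM in the Put samples and between 1495 and 1560 FPKM in the CK samples. Of these, 7 rose and 2 fell. Green tissue markers, 57 genes of which 8 were at 0, summed to between 157 and 162 FPKM with Put and between 192 and 195 FPKM in CK. Anther and pollen markers, 36 genes of which 19 were at 0, summed to between 43.1 and 48.2 FPKM with Put and between 34.3 and 36.0 FPKM in CK. The part of the fiber cells, or of the fall in *ANT* and *BEL1*, in any result below was not tested.

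More of the fatty acid genes rose than fell with Put. All 113 were tested with edgeR's quasi-likelihood test on the whole table, with adjusted p under 0.05 as the call. Of these, 44 were higher with Put and 12 were lower, and 57 were not called. That is 49.6% called. Of all 51764 tested genes 36.6% were called, 18.4% as higher and 18.2% as lower. Of the tested protein-coding genes with 60 counts or more 39.6% were called, 19.4% as higher and 20.2% as lower. The median log2 fold change of the 113 genes was 0.14, against 0.00 over all tested genes, and single values lay between -0.75 and 1.97. Most changes were small. The median size among the called genes was 0.33 on the log2 scale, and 15 higher and 4 lower genes reached 0.5, a size that 9.22% and 6.11% of all tested genes reached in those directions. In FPKM the 113 genes summed to 2435 ± 10.6 with Put and 2187 ± 9.98 in CK (SD, n = 3 each). The values of all 3 Put samples lay above those of all 3 CK samples for 47 genes and below for 14, together 61, against 45.4% of all tested genes without overlap. Leaving out Put replicate 1 left 35 higher and 7 lower calls, and 16 of the 56 calls were lost when some single sample was left out.

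**Figure D1:**
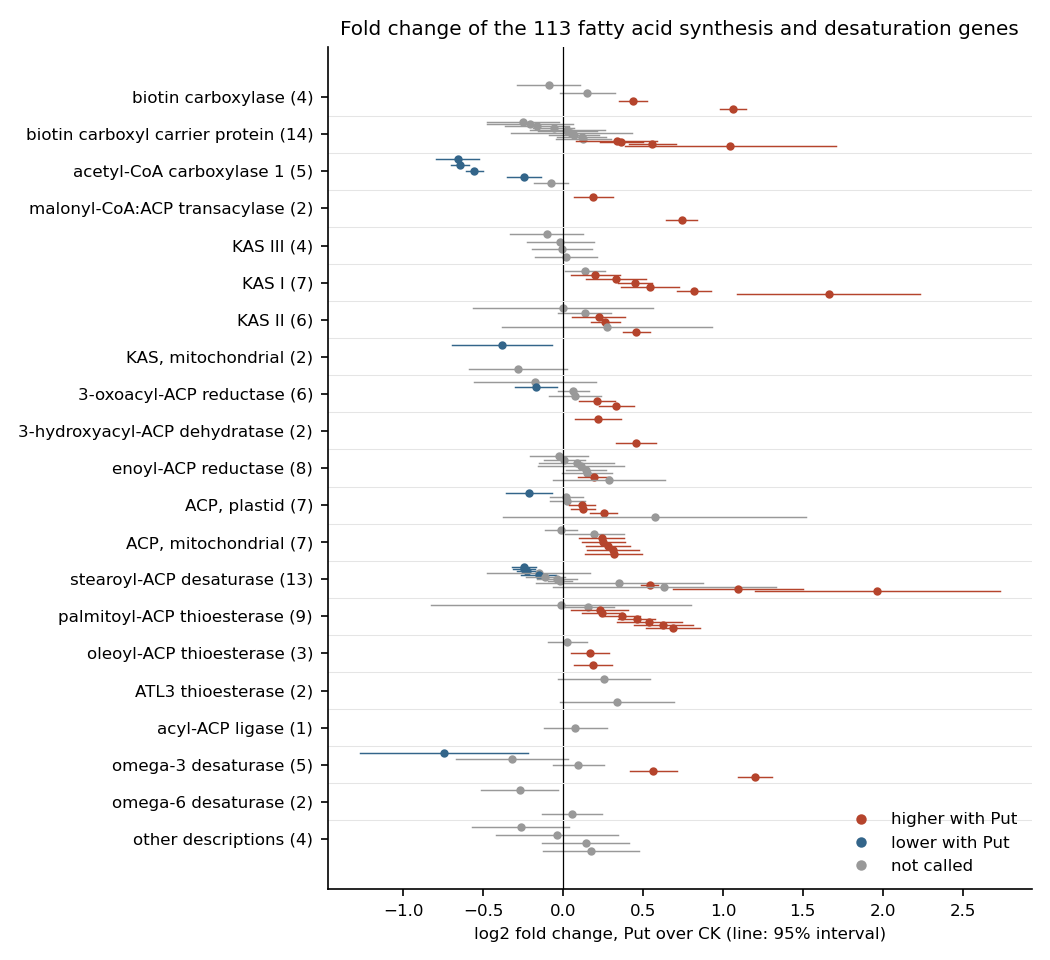
Log2 fold change of Put over CK for each of the 113 genes, grouped by role along the pathway, with the number of genes in each group in brackets. Points are edgeR estimates, lines are 95% intervals, and colors mark the call at an adjusted p under 0.05. All points of acetyl-CoA carboxylase 1 lie below 0, all points of KAS I lie above it, and those of KAS III lie between -0.10 and 0.02.

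The counts carried a trend with gene length. Across the 51764 tested genes, Spearman's rho between gene length and log2 fold change was -0.24, as a description across genes, which are not independent. The median log2 fold change was 0.16 for genes of up to 1 kb, and it was -0.29 for the 351 genes of over 7 kb. This touches the short ACP genes and the long acetyl-CoA carboxylase 1 genes most. A second fit with offsets that follow gene length is therefore given beside them. Under it 37 of the 113 genes were higher and 12 lower, and 44 of the 56 calls remained.

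Summed biotin carboxylase, a subunit of the heteromeric acetyl-CoA carboxylase, was higher with Put. The single-chain acetyl-CoA carboxylase 1, which in other plants works in the cytosol, was lower in sum. Biotin carboxylase is the subunit that puts CO2 on biotin. LOC107951345 (*biotin carboxylase 1*, chromosome A02, 35535311 to 35547632, plus strand) had 61.7, 58.5 and 57.0 FPKM in the Put samples and 29.9, 27.9 and 27.2 FPKM in the CK samples. Put levels were about 2.09 times those of CK, with a wide gap between the groups. The log2 fold change was 1.06 ± 0.04 (SE), with an adjusted p of 5.31e-29 by edgeR. Its counterpart on D02, LOC107910621 (25149445 to 25161489, plus strand), had 41.8, 41.6 and 44.5 FPKM with Put and 30.7, 31.6 and 32.3 FPKM in CK, a log2 fold change of 0.44 ± 0.04 (adjusted p = 3.37e-12). The groups did not overlap here either, but the gap was smaller. The other pair, described as biotin carboxylase 2 on A03 and D03, was not called, at -0.09 and 0.15. Together the 4 genes had 112 ± 1.79 FPKM with Put and 69.5 ± 0.43 FPKM in CK, a ratio of 1.61.

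Biotin carboxyl carrier protein holds the biotin. Of its 14 genes 4 rose, and the other 10 were not called. That is 28.6% called, below the 36.6% of all tested genes called in either direction. The share called higher was above the 18.4% of all tested genes. The highest, LOC107888545 on A09, had 29.2, 24.6 and 25.8 FPKM with Put and 19.8, 20.1 and 22.1 FPKM in CK (log2 fold change 0.36 ± 0.07, adjusted p = 1.41e-05). LOC107892382 on D09 had 21.2, 22.9 and 23.8 FPKM with Put and 13.7, 16.1 and 16.2 FPKM in CK (0.56 ± 0.07, adjusted p = 1.23e-08). Both carry the description of carrier protein 2, and neither overlapped between the groups. LOC107900540 on D06 was near 1 FPKM with Put, with 0.977, 1.02 and 1.11 FPKM against 0.801, 0.302 and 0.402 FPKM in CK (log2 fold change 1.05, adjusted p = 0.00931), and without CK replicate 2 it was not called (adjusted p = 0.0774). The fourth, LOC107920146 on D13, overlapped between the groups, a gene on the opposite strand overlaps it, and it lost its call when CK replicate 1, Put replicate 1 or Put replicate 2 was left out. The ratio of summed biotin carboxylase to summed carrier protein was 0.73 ± 0.015 with Put and 0.50 ± 0.015 in CK. This ratio is formed within a library, so a single scaling factor for each library drops out of it. A trend with gene length does not drop out, as the genes differ in length (2230 bp for LOC107951345, 1272 bp for LOC107888545).

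The carboxyltransferase subunits have another form of name, so the words of the rule missed them, and they were looked up after the descriptions were seen. The 7 genes of the alpha subunit summed to 86.4 ± 1.53 FPKM with Put and 86.4 ± 2.86 FPKM in CK. Of these 1 was higher (LOC107929274) and 2 were lower with Put, LOC107948866 at -0.11 and LOC107920246 at -0.22. Both lower calls were lost under the length offsets (-0.03 and -0.16), where LOC107899036 was also called higher at 0.13. DESeq2 called 0 lower and limma 1, and 3 were lower at an unadjusted edgeR p under 0.05. The 5 listed genes of the beta subunit, which plants usually encode in the plastid genome, had 0 counts in all 6 samples. Among the subunits of the heteromeric enzyme that had counts, biotin carboxylase therefore differed most between Put and CK in summed level. The carrier protein differed less, and the alpha subunit overlapped. The beta subunit could not be compared.

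Acetyl-CoA carboxylase 1 is one long chain that holds all these activities, and it supplies malonyl-CoA outside the plastid for chain elongation and other products. Of its 5 genes 4 fell with Put and 0 rose. The same counts came from DESeq2 and from limma, and 0 rose at an unadjusted p under 0.05. LOC121203072 (D01, 60361572 to 60375485, minus strand) had 29.9, 28.9 and 29.3 FPKM with Put and 43.3, 42.4 and 44.1 FPKM in CK (log2 fold change -0.56 ± 0.03, adjusted p = 5.62e-25). LOC107900939 (D05, 26434730 to 26447705, plus strand) had 21.3, 21.6 and 21.6 FPKM with Put and 34.3, 32.9 and 34.0 FPKM in CK (-0.65 ± 0.03, adjusted p = 2.49e-26). In both genes the samples of a group lay close together and far from the other group. LOC121229044 on A05 was lower by a like amount at a lower level, with 2.95, 3.05 and 3.45 FPKM with Put and 5.11, 4.60 and 5.23 FPKM in CK (-0.66 ± 0.07, adjusted p = 6.57e-12).

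The remaining 2 genes lie on A01 with 10625 bp between them. LOC107925841, with 5640 bp and without the biotin carboxylase domains that the other 4 genes list, had a log2 fold change of -0.24 (adjusted p = 0.00014). LOC107921814, with 7839 bp, was at -0.07 and was not called. The 5 genes summed to 69.8 ± 0.90 FPKM with Put and 99.7 ± 1.59 FPKM in CK, a ratio of 0.70. Under the offsets that follow length, LOC121203072 was at -0.32, LOC107900939 at -0.41 and LOC121229044 at -0.42, and all 3 stayed lower. LOC107925841 was at -0.06 and lost its call under these offsets, and LOC107921814 was called higher at 0.17. The fall of 3 genes thus held in both fits, and that of the A01 genes did not. Within each library the 5 genes summed to 0.63 ± 0.0058 times biotin carboxylase with Put and to 1.43 ± 0.029 times in CK. This ratio has no length offsets, and LOC107951345 (biotin carboxylase) has 2230 bp. The median log2 fold change of all tested genes was -0.05 at 2 to 3 kb and -0.29 over 7 kb. The part of this trend in the ratio was not tested.

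**Figure D2:**
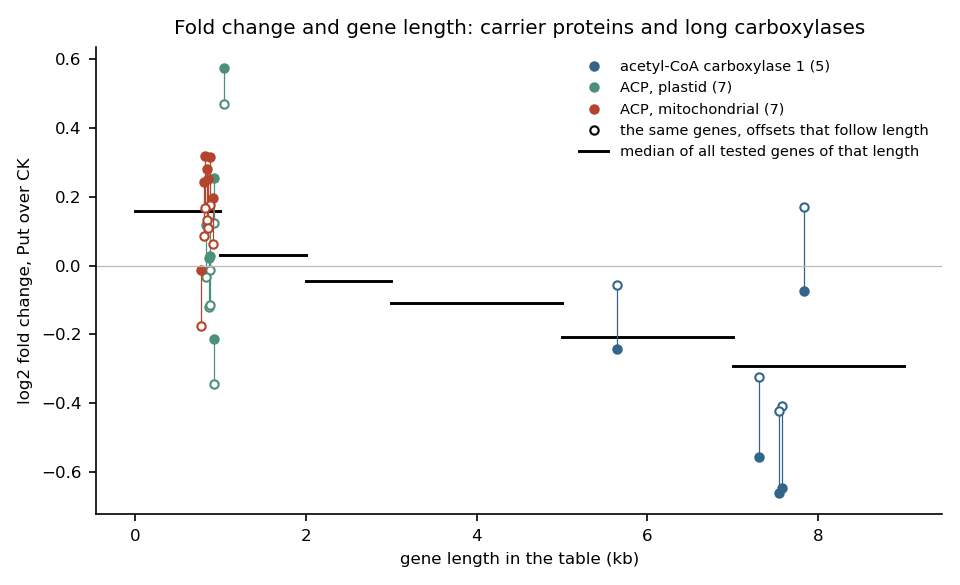
Log2 fold change of Put over CK against gene length in kb for the 5 acetyl-CoA carboxylase 1 genes and the 7 plastid and 7 mitochondrial ACP genes. Filled points are the main fit, open points the fit with offsets that follow gene length, and black bars the median of all tested genes in each length class (the last bar covers all genes over 7 kb). The main estimates of 3 carboxylases lie between -0.66 and -0.56, below the bar at -0.29, while 6 of the 7 mitochondrial ACP genes lie between 0.20 and 0.32, above the bar at 0.16, and the other lies at -0.01.

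Malonyl-CoA:ACP transacylase hands the malonyl group to ACP, and both of its genes rose. LOC107963860 (A03, 4953202 to 4956751, plus strand) had 41.8, 44.8 and 42.3 FPKM with Put and 24.7, 27.5 and 24.9 FPKM in CK (log2 fold change 0.74 ± 0.05, adjusted p = 1.21e-18). LOC107927148 on D03 had 20.8, 19.1 and 19.7 FPKM with Put and 17.2, 17.9 and 17.3 FPKM in CK (0.19 ± 0.06, adjusted p = 0.0108). Neither gene overlapped between the groups, and the A copy carried most of the difference. Without Put replicate 1 the D copy was not called (adjusted p = 0.0809). Their sum was 62.8 ± 0.931 FPKM with Put and 43.2 ± 1.92 FPKM in CK.

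The condensing enzymes divided by type. KAS III makes the first condensation, KAS I most of the further ones, and KAS II the last step to an 18-carbon chain. Of the 7 KAS I genes 6 rose, and the values of all 7 lay above CK in every Put sample. LOC107942640 (A05, 14651216 to 14655428, minus strand) had 27.9, 27.2 and 27.2 FPKM with Put and 15.7, 15.9 and 15.2 FPKM in CK (log2 fold change 0.82 ± 0.05, adjusted p = 7.29e-19). LOC107905871 on D05 had 24.4, 26.6 and 25.7 FPKM with Put and 19.2, 18.6 and 18.5 FPKM in CK (0.45 ± 0.05, adjusted p = 6.78e-10). These 2 genes were the most abundant KAS I genes in both groups. The seventh by level, LOC107946916 on A08, was low, with 1.51, 1.12 and 1.24 FPKM with Put and 0.375, 0.295 and 0.552 FPKM in CK (1.66 ± 0.29, adjusted p = 3.51e-06). LOC107962139 on D09 was the gene not called, at 0.14 (adjusted p = 0.0764). Without Put replicate 1, 4 of the 7 were called. KAS I summed to 99.7 ± 0.493 FPKM with Put and 72.8 ± 0.935 FPKM in CK.

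KAS II had 6 genes, of which 3 rose, and the call of LOC121220007 on D08 was lost in 4 of 6 cases when a sample was left out. LOC107942569 on D13, the highest of all KAS genes, had 33.6, 34.8 and 35.7 FPKM with Put and 24.5, 26.9 and 24.4 FPKM in CK (log2 fold change 0.46 ± 0.04, adjusted p = 3.61e-13). KAS II summed to 79.9 ± 0.606 FPKM with Put and 63.9 ± 0.703 FPKM in CK. Its ratio to KAS I was 0.80 ± 0.0036 with Put and 0.88 ± 0.013 in CK, so KAS I differed by more than KAS II.

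KAS III was the exception. Its 4 genes had log2 fold changes between -0.10 and 0.02, and 0 were called by edgeR, DESeq2 or limma or had an unadjusted p under 0.05. The most abundant, LOC107890650 on D09, had 7.43, 7.91 and 7.33 FPKM with Put and 8.29, 7.33 and 6.78 FPKM in CK, with a 95% interval of the log2 fold change from -0.18 to 0.21. The widest reach downward was -0.33, in LOC107912217. The sum was 24.4 ± 0.768 FPKM with Put and 24.8 ± 0.63 FPKM in CK, and the groups overlapped. The ratio of KAS I to KAS III was 4.08 ± 0.12 with Put and 2.94 ± 0.047 in CK.

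The 2 mitochondrial KAS genes were low, and the call of LOC107924391 on A11 was weak (1.62, 1.96 and 1.90 FPKM with Put, 2.63, 2.24 and 2.28 FPKM in CK, log2 fold change -0.38, adjusted p = 0.0475). A gene on the opposite strand, of the BPI/LBP family, overlaps it and had 68, 67 and 62 counts with Put and 96, 91 and 95 counts in CK. The library kit is not stated to mark strand, so the reads of the 2 genes cannot be told apart. DESeq2 and limma did not call LOC107924391, and edgeR did not when any one sample was left out (adjusted p between 0.0547 and 0.190).

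Of the enzymes that dehydrate and reduce the growing chain, both dehydratase genes rose, and their sum was 54.4 ± 2.52 FPKM with Put and 42.9 ± 2.17 FPKM in CK, a ratio of 1.27. The ketoacyl and enoyl reductases each had a ratio of 1.08. LOC107951686 on A02 had 32.5, 29.1 and 30.2 FPKM with Put and 22.0, 22.3 and 22.7 FPKM in CK (log2 fold change 0.46 ± 0.06, adjusted p = 1.75e-08). LOC107950400 on D03 was at 0.22 (adjusted p = 0.0141) with an overlap between the groups, and it lost its call under the length offsets and without CK replicate 2 or Put replicate 1.

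Of the 6 ketoacyl reductase genes 2 rose and 1 fell. The 2 that rose were copies of reductase 4, of which LOC107898039 on A05 had 30.0, 32.8 and 31.1 FPKM with Put and 25.0, 24.7 and 25.0 FPKM in CK (0.33 ± 0.05, adjusted p = 1.56e-06). The FabG-type gene LOC107907044 on D05 was the most abundant reductase, at 50.2, 52.7 and 47.4 FPKM with Put and 47.8, 46.5 and 49.7 FPKM in CK. Its log2 fold change was 0.06 (adjusted p = 0.314), and the groups overlapped. Its A05 counterpart LOC107958845 was lower at -0.17 (adjusted p = 0.0408), a call lost in 5 of 6 cases when a sample was left out. Of the 8 enoyl reductase genes 1 rose, LOC121220156 on D08, with 29.1, 29.6 and 31.0 FPKM with Put and 26.7, 26.2 and 25.7 FPKM in CK (0.19 ± 0.05, adjusted p = 0.00154). That is 12.5% higher and 0 lower, against 18.4% and 18.2% of all tested genes. The enoyl reductases summed to 113 ± 4.61 FPKM with Put and 105 ± 4.12 FPKM in CK and overlapped.

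ACP itself, the carrier of the growing chain, was among the most abundant of these transcripts. The 7 plastid ACP genes summed to 446 ± 6.52 FPKM with Put and 415 ± 7.38 FPKM in CK. Of these 3 were called higher and 1 lower. LOC107895029 on D13 had 114, 117 and 116 FPKM with Put and 103, 109 and 107 FPKM in CK (log2 fold change 0.13 ± 0.04, adjusted p = 0.00532), and LOC107929173 on A09 had 100, 88.9 and 90.6 FPKM with Put and 81.2, 76.8 and 77.3 FPKM in CK (0.25 ± 0.04, adjusted p = 3.22e-06). LOC107895004 on A13 went the other way, with 23.2, 25.0 and 24.5 FPKM with Put and 27.5, 30.2 and 26.7 FPKM in CK (-0.21, adjusted p = 0.0152), but was not called without CK replicate 2 or Put replicate 1. Under the length offsets 1 plastid ACP gene was higher and 1 lower, the estimate of LOC107895029 was -0.01, and the median of the 7 genes was -0.03.

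Mitochondrial ACP carries the chain from which the lipoyl cofactor is made. Of its 7 genes 5 were called higher, and the sum was 228 ± 5.30 FPKM with Put and 201 ± 4.66 FPKM in CK. LOC107942271 on D01 had 36.1, 32.2 and 37.5 FPKM with Put and 29.9, 28.7 and 28.7 FPKM in CK (log2 fold change 0.28 ± 0.07, adjusted p = 0.000787). The most abundant, LOC107920707 on D13, had 66.9, 63.9 and 62.4 FPKM with Put and 67.3, 66.0 and 62.1 FPKM in CK, a log2 fold change of -0.01. None of the 5 calls remained under the length offsets, where 0 genes were higher, LOC107920707 was lower at -0.18 and the median was 0.11. These genes are between 769 and 910 bp long. The median of the 7 genes in the main test was 0.25, against 0.16 for all tested genes of up to 1 kb. The calls in both ACP groups thus depended on the fit.

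**Figure D3:**
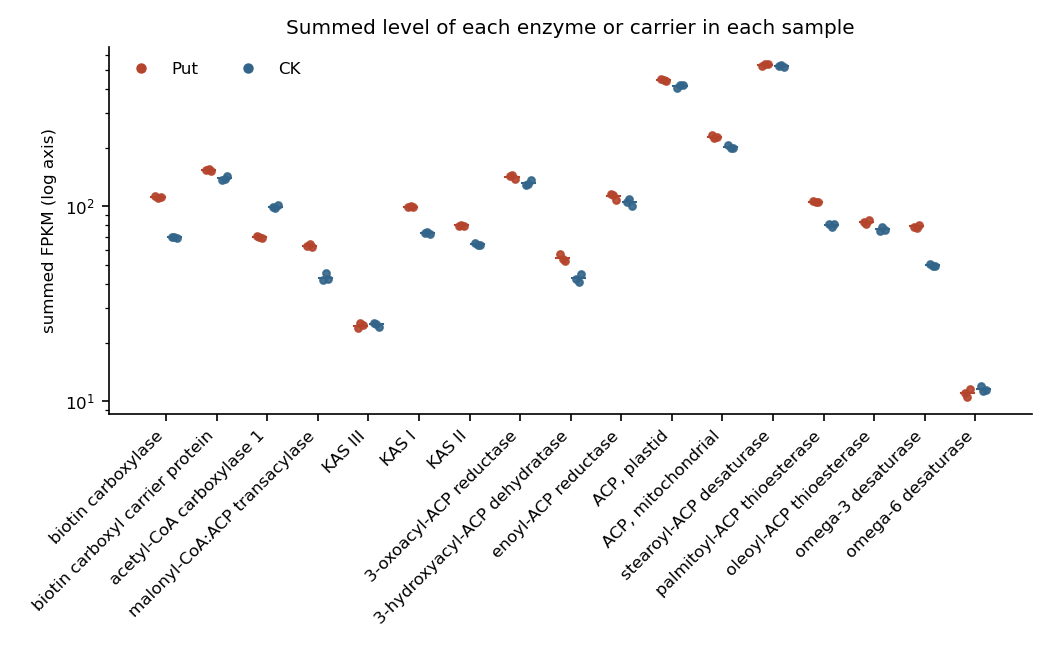
Summed FPKM of the genes of each enzyme or carrier in each sample, on a log axis, in pathway order, with horizontal bars at the mean of 3 samples. Put lies left of CK in each column. Biotin carboxylase (112 with Put, 69.5 in CK), the transacylase (62.8 with Put, 43.2 in CK) and the omega-3 desaturases (79.0 with Put, 49.8 in CK) stand higher with Put, acetyl-CoA carboxylase 1 (69.8 with Put, 99.7 in CK) stands lower, and the stearoyl-ACP desaturases and KAS III overlap.

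Stearoyl-ACP desaturase makes oleoyl-ACP in the plastid stroma and was the enzyme with the largest summed level. Its 13 genes together had 535 ± 8.95 FPKM with Put and 525 ± 6.03 FPKM in CK, and these groups overlapped. Single genes moved in opposite directions under this nearly equal sum, as 3 rose and 4 fell. LOC107914399 (D05, 51793862 to 51795956, plus strand), the most abundant of all 113 genes, had 171, 173 and 171 FPKM with Put and 119, 120 and 116 FPKM in CK (log2 fold change 0.54 ± 0.03, adjusted p = 1.16e-23). It made up 32.1% of the summed level with Put and 22.5% in CK. The other 12 genes summed to 363 ± 8.63 FPKM with Put and 407 ± 4.10 FPKM in CK, without overlap.

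The genes that fell included the next 3 in abundance. LOC107948113 on A05 had 76.4, 77.6 and 78.1 FPKM with Put and 90.7, 91.7 and 89.2 FPKM in CK (-0.22 ± 0.03, adjusted p = 5.08e-08). LOC107951002 on A02 had 71.7, 74.8 and 74.1 FPKM with Put and 87.3, 86.7 and 87.7 FPKM in CK (-0.24 ± 0.03, adjusted p = 4.09e-08). LOC107910273 on D02 had 70.8, 72.1 and 76.1 FPKM with Put and 90.7, 86.3 and 83.0 FPKM in CK (-0.25 ± 0.04, adjusted p = 1.76e-07). All 3 were separate between the groups and moved by a like amount, and the A02 and D02 genes kept the same share of their pair (49.8% of counts for the A02 gene with Put and 49.8% in CK).

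Neighboring genes did not move together on D05. LOC107914399 has a neighbor on D05 81295 bp away, LOC107903707, with 60.03, 62.5 and 61.7 FPKM with Put and 60.1, 64.0 and 62.6 FPKM in CK (-0.02, adjusted p = 0.745). The 2 genes that lie 93999 bp apart on A05, LOC107948113 and LOC107948116, were both lower, with LOC107948116 at -0.15 (adjusted p = 0.0231, not called without CK replicate 3 or Put replicate 1). Which A05 gene corresponds to which D05 gene cannot be read from the descriptions. The other genes that rose were LOC107896783 on A10, with 3.13, 2.77 and 2.92 FPKM with Put and 0.953, 1.503 and 1.67 FPKM in CK (1.10 ± 0.20, adjusted p = 1.32e-05), and LOC107920978 on A12. The A12 gene had the largest fold change of the 113, at 1.97 ± 0.38 (adjusted p = 3.12e-05), but rested on 30, 31 and 24 counts with Put and 9, 11 and 4 counts in CK.

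**Figure D4:**
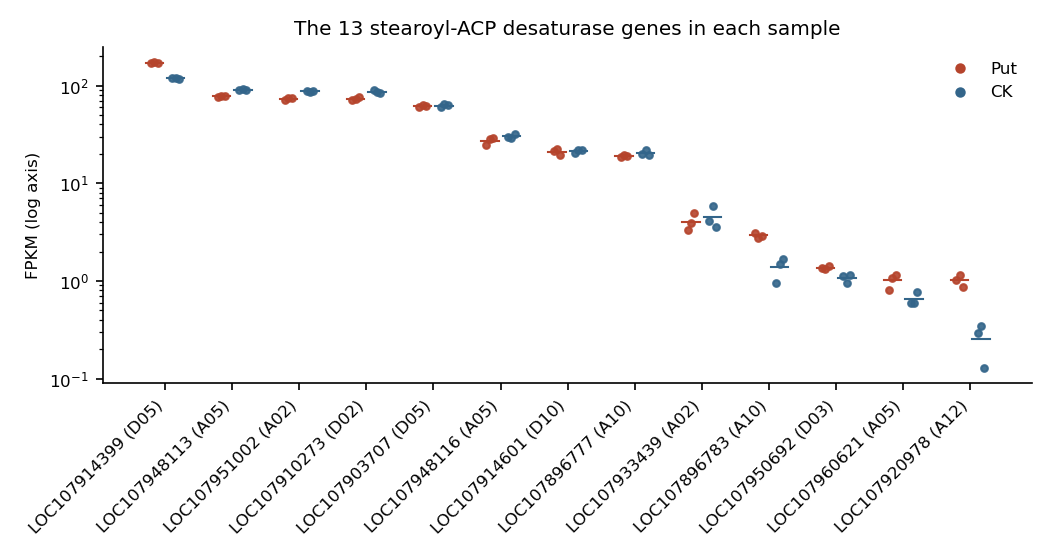
FPKM of each of the 13 stearoyl-ACP desaturase genes in each sample, on a log axis, ordered by mean level, with horizontal bars at the mean of 3 samples and Put left of CK. The most abundant gene on D05 is near 171 FPKM with Put and near 119 in CK, while the next 3 genes lie between 70.8 and 78.1 FPKM with Put and between 83.0 and 91.7 FPKM in CK.

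Thioesterases end synthesis by cutting the chain from ACP. The FATB type, described as palmitoyl-ACP thioesterase, prefers saturated chains, and the FATA type, described as oleoyl-ACP thioesterase, prefers oleate. Of the 9 FATB genes 7 rose and 0 fell, and 0 fell at an unadjusted p under 0.05 or by DESeq2 or limma. LOC107932089 (D13, 60843082 to 60846714, plus strand) had 12.4, 12.3 and 13.6 FPKM with Put and 7.97, 7.62 and 8.17 FPKM in CK (log2 fold change 0.69 ± 0.08, adjusted p = 1.15e-09). LOC107901209 on D06 was at 0.63 ± 0.09 (adjusted p = 1.03e-07), and the most abundant, LOC107939491 on D08, at 0.37 ± 0.06 (adjusted p = 2.63e-07). The same 7 genes rose under the length offsets, while LOC107930856 on A07 lost its call in 4 of 6 cases when a sample was left out. FATB summed to 106 ± 0.933 FPKM with Put and 80.4 ± 1.89 FPKM in CK.

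The 3 FATA genes differed less, and 2 of them rose. LOC107962806 on D08 had 29.3, 28.2 and 28.7 FPKM with Put and 24.7, 27.0 and 24.1 FPKM in CK (0.19 ± 0.06, adjusted p = 0.00813), but without CK replicate 3 its adjusted p was 0.0501. The other, LOC121220236 on D08, lost its call in 4 of 6 such cases. FATA summed to 83.2 ± 2.05 FPKM with Put and 76.2 ± 1.74 FPKM in CK. The FATB to FATA ratio was 1.29, 1.30 and 1.23 in the Put samples and 1.09, 1.00 and 1.08 in the CK samples. The ratio was thus higher in every Put sample than in any CK sample, with a mean of 1.27 ± 0.034 with Put and 1.06 ± 0.048 in CK. The 2 genes described as thioesterase ATL3 were at 0.26 and 0.34 and were not called, and the single acyl-ACP ligase, LOC107920696, was at 0.08.

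The acyl-lipid desaturases of the rule were 5 omega-3 and 2 plastid omega-6 genes. Omega-3 desaturases make the trienoic chains of membrane lipids. LOC107889065 (A09, 63933832 to 63938158, plus strand), the only one described as of the endoplasmic reticulum, had 40.3, 39.0 and 41.3 FPKM with Put and 17.3, 17.3 and 18.1 FPKM in CK. Put levels were 2.29 times those of CK (log2 fold change 1.20 ± 0.05, adjusted p = 5.77e-26). The plastid gene LOC107948941 on A04 had 19.6, 22.3 and 20.7 FPKM with Put and 13.7, 14.5 and 14.2 FPKM in CK (0.56 ± 0.07, adjusted p = 6.06e-09). Its D04 counterpart LOC107899542 had 15.7, 14.3 and 15.1 FPKM with Put and 15.3, 13.8 and 13.4 FPKM in CK and was not called (0.09, adjusted p = 0.385). The ratio of the endoplasmic reticulum gene to the 4 plastid genes was 1.04 ± 0.033 with Put and 0.55 ± 0.032 in CK. It leaves out LOC107891614 on D09, also described as an omega-3 desaturase of the endoplasmic reticulum, whose name lies outside the rule. That gene had 45.5 ± 3.36 FPKM with Put and 11.9 ± 0.346 FPKM in CK. The ratio is thus not that of all endoplasmic reticulum forms to the plastid forms.

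The largest fall of the 113 genes was that of the plastid omega-3 gene LOC121207887 on A10, at -0.75 ± 0.26 (adjusted p = 0.0209). It rested on 27, 16 and 36 counts with Put and 59, 45 and 44 counts in CK, DESeq2 and limma did not call it, and its call was lost without CK replicate 1, Put replicate 1 or Put replicate 2. A gene on the opposite strand overlaps it. The omega-6 genes LOC107888427 on D13 and LOC107893433 on A13 were at 0.06 and -0.27 and were not called by edgeR (adjusted p = 0.693 and 0.0709). The A13 gene was the 1 of them with an unadjusted p under 0.05, DESeq2 and limma called 0, and without CK replicate 3 edgeR called it lower at -0.38 (adjusted p = 0.0165).

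The remaining 4 genes matched the rule by name but act elsewhere. They are described as an acyl-carrier-protein phosphodiesterase of the PptH type and as a mitochondrial UDP-N-acetylglucosamine O-acyltransferase. Their log2 fold changes lay between -0.26 and 0.17, and edgeR, DESeq2 and limma called 0 of them, with 0 at an unadjusted p under 0.05. LOC107904749 and LOC107901128 were the most abundant and the one with the smallest adjusted p (0.177).

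Cotton is a tetraploid, and most of these genes come as homeologous copies in the A and D subgenomes. Of the 58 genes on A chromosomes 21 were higher and 9 lower, and of the 55 on D chromosomes 23 were higher and 3 lower. The shares over all tested genes of each subgenome were not computed. By description and chromosome number 29 pairs could be formed. In 11 pairs both copies rose, in 1 both fell, in 10 only 1 copy was called, in 6 neither was, and in 1 the copies were called in opposite directions. How many of all A and D pairs of the genome would fall in each class was not computed. The counts by class thus describe the 29 pairs only. Reads of near-identical copies may have been assigned to either, and how the authors treated such reads is not given in the sources used here.

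The A copy's share of the counts of a pair was above CK in every Put sample in 5 pairs, below in 4, and overlapped in 20. How many of all A and D pairs of the genome would not overlap was not computed. These counts are therefore a description of the pairs only. For biotin carboxylase 1 the A02 share was 63.6%, 62.5% and 60.2% in the Put samples and 53.5%, 51.1% and 49.9% in the CK samples. For the transacylase the A03 share was 67.0% ± 1.73 with Put and 58.0% ± 0.997 in CK. For the plastid omega-3 pair the A04 share was 58.0% ± 2.70 with Put and 50.0% ± 2.29 in CK, and for KAS I it was 52.1% ± 1.43 with Put and 45.7% ± 0.579 in CK on A05, and 34.8% ± 0.820 with Put and 28.7% ± 0.749 in CK on A09. In these 5 pairs the A copy gained share. The D copy gained share in the ACP pair of chromosome 13, where the A share was 18.1% ± 0.406 with Put and 21.9% ± 0.868 in CK. It also did so in a pair each of FATA, FabG-type reductase and biotin carboxyl carrier protein. The A05 and D05 acetyl-CoA carboxylase 1 genes, paired only when the ending "-like" was ignored, fell together, and the A05 share was 12.7% ± 0.849 with Put and 12.8% ± 0.541 in CK.

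**Figure D5:**
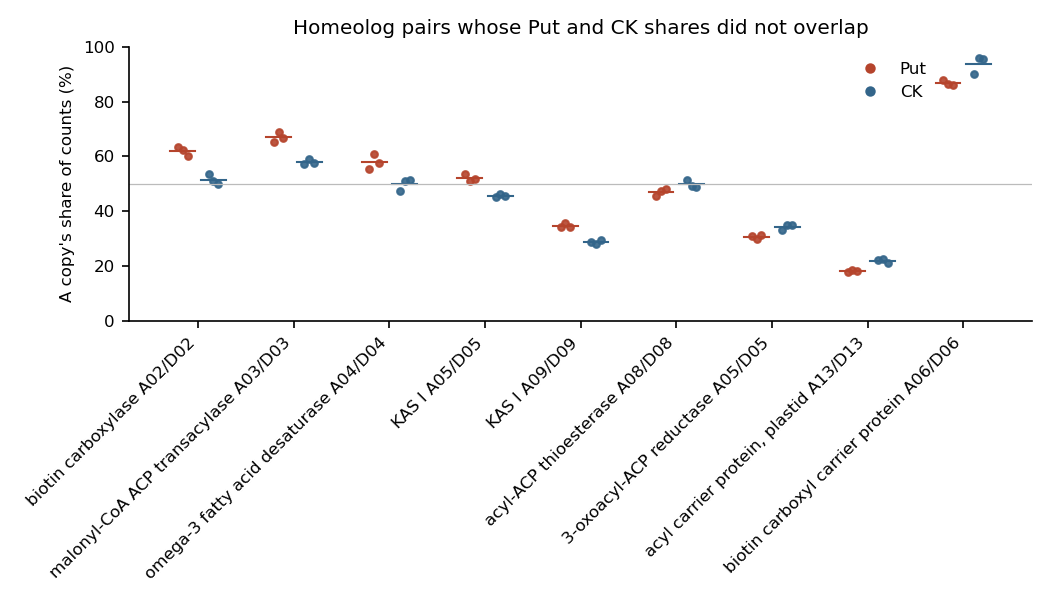
Share of the A copy in the counts of a homeolog pair, in percent, in each sample, for the 9 of 29 pairs whose Put and CK values did not overlap, with Put left of CK and horizontal bars at the mean of 3 samples. Biotin carboxylase on A02 is at 62.1% with Put and 51.5% in CK, and the ACP copy on A13 is at 18.1% with Put and 21.9% in CK.

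Genes that feed, regulate or use the pathway were read from a list of 119 by description. Of these 36 (30.3%) were higher and 21 (17.6%) lower with Put, against 18.4% and 18.2% of all tested genes, so the share of lower calls was near that of all genes. The median log2 fold change of the 119 genes was 0.06. Of the 57 calls 13 were lost when some single sample was left out, none of them of a gene named here. WRI1, which in *Arabidopsis* activates genes of fatty acid synthesis, had 4 genes, of which 3 rose. LOC107915744 on D10 had 4.31, 3.74 and 3.18 FPKM with Put and 2.01, 2.12 and 2.07 FPKM in CK (0.86 ± 0.16, adjusted p = 1.24e-05). Plastid pyruvate dehydrogenase, which supplies acetyl-CoA to the plastid, had 6 of 13 genes higher and 1 lower, with LOC107923382 at 0.35 (adjusted p = 1.16e-07). Of the 12 genes of ATP-citrate synthase, which supplies acetyl-CoA in the cytosol, 3 were higher and 5 lower. LOC107896593 on A10 had 60.5, 64.9 and 63.1 FPKM with Put and 94.5, 96.4 and 96.6 FPKM in CK (-0.61 ± 0.03, adjusted p = 4.31e-24). The sum of these 12 genes was 452 ± 4.83 FPKM with Put and 497 ± 5.65 FPKM in CK. Of 4 acetyl-CoA synthetase genes 2 were lower, led by LOC107962199 (-0.36, adjusted p = 6.55e-05).

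Most desaturases whose names lie outside the rule rose. Of 16 genes 12 rose and 0 fell, and DESeq2 and limma each called 11 higher and 0 lower, with 0 lower at an unadjusted p under 0.05. LOC107891614, a further omega-3 desaturase of the endoplasmic reticulum, on D09, had 43.1, 44.0 and 49.3 FPKM with Put and 11.8, 11.7 and 12.3 FPKM in CK (1.93 ± 0.06, adjusted p = 7.55e-34). It and LOC107889065 on A09 were thus both higher with Put. Among genes that activate chains, the 20 long chain acyl-CoA synthetases had 6 higher and 7 lower, with LOC107910005 (*LACS1*) at 1.13 (adjusted p = 3.00e-35). That is 30% and 35%, against 18.4% and 18.2% of all tested genes, and the median log2 fold change was -0.004. The 14 genes of FATTY ACID EXPORT, carriers that take chains through membranes, had 3 higher and 1 lower, led by LOC121216940 at 0.71 (adjusted p = 1.05e-12). These shares were 21.4% and 7.14%, against 18.4% and 18.2% of all tested genes, so the share of higher calls was near that of all genes.

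Among enzymes that use the chains inside the plastid, 1 group had more lower than higher calls. Of 18 genes of plastid glycolipid synthesis 1 was higher and 5 were lower. That is 5.56% and 27.8%, against 18.4% and 18.2% of all tested genes. The median log2 fold change of the 18 genes was -0.00095. LOC107925636 (*DGD1*, a galactolipid synthase) was at -0.69 (adjusted p = 2.71e-16). The 18 genes summed to 95.4 ± 2.33 FPKM with Put and 113 ± 0.562 FPKM in CK. Of 10 plastid glycerol-3-phosphate acyltransferase genes 2 were higher, led by LOC107891903 at 0.41 (adjusted p = 0.000199), a share near the 18.4% of all tested genes. None of the 8 genes of lipoate synthesis was called by edgeR, DESeq2 or limma, and 0 had an unadjusted p under 0.05.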

How the data were processed

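Total RNA of cultured ovules was sequenced in 6 samples. For each gene of Gossypium_hirsutum_v2.1 the authors deposited the raw count and the FPKM, which follows count over gene length with a scaling between samples. Per the submitters' processing notes, CASAVA and HISAT2 2.0.5 were used, and the counting tool is not given in the sources used here. FPKM served for levels and counts for tests.

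Counts were tested in R 4.3.3 with edgeR 4.0.16 (filterByExpr, TMM, quasi-likelihood test, no covariate, Benjamini-Hochberg adjustment over 51764 genes, call at adjusted p under 0.05). The sources name no test for the study's own DEG. The model was tested on simulated data. Summed FPKM, ratios and shares of homeologs carry no test. Alternatives were DESeq2 1.42.0, its size factors, library size alone, limma 3.58.1 on log2 FPKM with a pseudocount of 1 or 0.1 (genes averaging 0.5 FPKM or more), no count filter, a mean of at least 1 CPM, offsets that follow gene length, a replicate block, stricter thresholds and leaving out each sample.

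All 113 genes were found in the RefSeq table of the same build, 109 with the same start and end. Another gene overlaps 11 of them, 8 on the opposite strand. Named genes were, in each role, the most abundant and that with the smallest adjusted p, the 5 largest and 5 smallest called fold changes at a mean of at least 1 CPM, and the smallest adjusted p of each related group. Other named genes were chosen after their values were seen. The members and all lists were chosen with earlier results of these data known. At these totals 3 counts are the smallest that can be told from 0, and this covers counting error only.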

Additional observations from a re-analysis of the deposited data

How the results depend on the processing

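More of the 113 genes were higher than lower with Put under every alternative run, as in the main test (44 and 12). The count of higher genes lay between 35 and 45 over the alternatives other than the fold threshold. The count of lower genes was 7 with DESeq2, 7 at an adjusted p under 0.01 and between 7 and 11 when a sample was left out (7 without Put replicate 1). With calls limited to log2 fold changes of 0.5 or more in size, 15 of the 113 genes were higher and 4 lower, 16 and 6 of the 119 related genes, and 7934 of all tested genes were called. Across alternatives, values of named genes, summed levels and homeolog shares were compared with the main result. For 681 values a gene kept its sign and call, or a sum or share moved by less than its SD. Of the rest, 35 lost their call, 3 gained one, 5 changed sign and 1 sum or share moved further. Those that changed sign were small. LOC107907044 was at -0.011 and LOC107895029 at -0.013 under the length offsets. When a sample was left out, LOC107920707 lay between -0.043 and 0.013 and LOC107904749 between -0.042 (without Put replicate 3) and 0.25. Only LOC107895029 of these was called in the main test. With pairs also formed without "-like" and across exchanged chromosome arms, choices made after seeing the data, 10 of 42 pairs did not overlap. Low counts limit the genes under 1 FPKM.

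With the replicate number as a block, 44 genes were higher and 10 lower, so 2 of the 56 calls were lost. Over all tested genes, the deviations of same-numbered samples had correlations of -0.00497, -0.0085 and -0.0133. These values show no sign that the numbers pair the samples. They cannot exclude pairing, as counting error adds to the deviations of each gene.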
